A study of Mus musculus with 18 samples.

Results

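The Hox cluster genes are the 39 genes of the mouse whose symbol is Hoxa, Hoxb, Hoxc or Hoxd followed by digits alone. They were taken by symbol from a count table of 47643 genes, and all 39 were found. The table covers MPC3, a mouse prostate cancer cell line, in 3 groups of 6 libraries. The control group is labelled Control and carries the word plko in its sample titles, and the other 2 groups are labelled RNF185 KD, for knockdown, with the short hairpin RNA shRNF185.1 or shRNF185.3. A short hairpin RNA is made from a vector inside the cell and lowers the messenger RNA that it matches, and Rnf185 encodes a ubiquitin ligase of the endoplasmic reticulum membrane. The series compares knockdown with control, and its title concerns collagen expression, migration and metastatic potential. All groups come from 1 cell line, the labels give no genotype or harvest time, and nothing states that libraries came from separate cultures. The p-values therefore measure only the spread between these libraries that was left in counts already adjusted for batch by the submitters. The main fit held no batch term and did not allow for that adjustment, so its p-values may be too small. Each of 3 batches named in the labels holds 2 libraries of every group.

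Hox genes encode transcription factors with a homeodomain, and they lie in 4 clusters named Hoxa to Hoxd. Genes that share a number in different clusters are paralogues, descended from a common ancestor. Their order along the chromosome follows the order of the body regions in which they act, so that low numbers pattern the head and neck and high numbers pattern the lower trunk, the ends of the limbs and the urogenital tract. Hox proteins often bind DNA together with the TALE homeodomain proteins Pbx, Meis and Pknox. Polycomb complexes keep silent clusters closed, and trithorax proteins keep active ones open. In the prostate the genes with the highest numbers, such as Hoxa13, Hoxb13 and Hoxd13, act in the development of the gland.

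The clusters also hold microRNAs, which are shown because their targets lie among the same genes. A microRNA recognises messenger RNAs mainly by its seed, bases 2 to 8. The sequences below are RefSeq's (GRCm38.p6), written 5′ to 3′ with the seed in capitals, and they fall into 2 seed families. Mir196a-1 lies at chr11:96265187-96265208 between Hoxb13 and Hoxb9, Mir196a-2 at chr15:102973365-102973386 in the Hoxc cluster, and Mir196b on the minus strand at chr6:52230129-52230150 inside Hoxa9. Mir10a lies at chr11:96317186-96317208 and Mir10b at chr2:74726074-74726096, and where no strand is given it is the plus strand.
miR-196a-5p: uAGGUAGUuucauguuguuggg
miR-196b-5p: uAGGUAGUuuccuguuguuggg
miR-10a-5p: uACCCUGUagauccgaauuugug
miR-10b-5p: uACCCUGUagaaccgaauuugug

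The stretch of the Hoxb8 transcript that pairs best with miR-196a-5p starts at base 2208 of 2635, with capitals for bases in Watson-Crick pairs.
Hoxb8 site: CCCAACAACATGAAACTgCCTA
It forms 21 Watson-Crick pairs and 1 G:U pair, over all 22 bases of the microRNA. In a search of the transcripts of 21901 genes, 2 genes held a stretch paired over all 22 bases, Hoxb8 and Rps6ka2, and the best stretch of the median gene paired over 18. The letters ACTACCT, which match the miR-196 seed, occur in transcripts of 11 of 39 Hox genes (28.2%) and of 15.9% of all genes searched. In Hoxb8 they lie within bases 1 to 22 of the transcript, and the stretch printed above does not hold them. The letters ACAGGGT, which match the miR-10 seed, occur in 7 of 39 Hox genes (17.9%) and in 18.9% of all genes. A match of letters is a description and not a site of action, and mature microRNAs are not measured in poly(A)-selected libraries.

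The promoters of Hoxa10, Hoxa13 and Hoxb8 are shown because these genes carry the differences described further on. Each runs from 250 bases before to 50 bases after a RefSeq start (GRCm38.p6), 5′ to 3′ on the strand of the gene, and RefSeq lists 2 starts for Hoxa10. Capitals mark matches, on either strand, of 4 motifs. These were the TATA box as TATAAA, the box known by its letters CCAAT, the motif TTTATNG of Hox proteins with high numbers, and TGATTNAT, a joint motif of Pbx and Hox proteins. TTTATNG overlaps the reverse complement of TATAAA where N is A.
Hoxa10 chr6:52234890-52235189, minus strand: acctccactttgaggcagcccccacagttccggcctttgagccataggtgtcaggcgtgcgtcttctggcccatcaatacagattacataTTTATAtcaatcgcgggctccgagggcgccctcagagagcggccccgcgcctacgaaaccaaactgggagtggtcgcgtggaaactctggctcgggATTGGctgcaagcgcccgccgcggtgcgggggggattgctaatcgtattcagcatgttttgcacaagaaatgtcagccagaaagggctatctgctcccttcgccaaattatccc
Hoxa10 chr6:52240805-52241104, minus strand: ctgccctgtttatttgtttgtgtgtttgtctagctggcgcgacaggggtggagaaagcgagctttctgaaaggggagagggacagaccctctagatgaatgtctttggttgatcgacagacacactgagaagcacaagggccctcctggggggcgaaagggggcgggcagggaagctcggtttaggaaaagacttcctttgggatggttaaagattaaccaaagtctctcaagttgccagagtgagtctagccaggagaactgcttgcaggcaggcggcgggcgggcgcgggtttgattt
Hoxa13 chr6:52260831-52261130, minus strand: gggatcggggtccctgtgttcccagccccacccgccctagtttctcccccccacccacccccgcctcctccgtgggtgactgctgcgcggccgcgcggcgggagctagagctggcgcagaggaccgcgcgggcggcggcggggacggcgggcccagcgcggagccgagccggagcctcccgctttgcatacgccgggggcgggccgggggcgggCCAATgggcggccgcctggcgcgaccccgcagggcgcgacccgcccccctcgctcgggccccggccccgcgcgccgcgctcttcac
Hoxb8 chr11:96281655-96281954, plus strand: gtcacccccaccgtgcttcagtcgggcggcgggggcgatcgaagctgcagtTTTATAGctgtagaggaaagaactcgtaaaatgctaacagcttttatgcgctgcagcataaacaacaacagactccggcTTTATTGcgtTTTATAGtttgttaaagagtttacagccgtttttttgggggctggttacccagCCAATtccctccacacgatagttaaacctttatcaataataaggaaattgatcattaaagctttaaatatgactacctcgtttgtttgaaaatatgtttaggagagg

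The first Hoxa10 window holds TATAAA and CCAAT, both on the reverse strand, and the second holds none of the 4 motifs. The Hoxa13 window holds 1 CCAAT and 45 CpG dinucleotides, with a GC content of 81.0%. The Hoxb8 window holds 3 matches of TTTATNG and 1 CCAAT, and 2 of those 3 matches contain TATAAA on the reverse strand. Windows were listed for 22 of the 39 Hox genes and for 11 of the 19 tested ones, 24 windows in all. CCAAT was found in 15 of these 24 windows (62.5%) and in 37.4% of 32851 windows of the same length. TATAAA was found in 16.7% of Hox windows and 13.6% of all, TTTATNG in 8.33% and 10.9%, and TGATTNAT in 8.33% and 3.22%. No binding was measured in these samples.

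The genes with enough counts to test came from 2 of the 4 clusters. A gene was tested where it passed edgeR's filter on low counts (filterByExpr with a minimum count of 10), and 19 of the 39 Hox genes did. All 11 genes of the Hoxa cluster passed, and so did 8 of the 10 genes of the Hoxb cluster (chr11:96194316-96368256). None of the 9 Hoxc genes (chr15:102921103-103036852) and none of the 9 Hoxd genes (chr2:74668310-74765142) passed. The Hoxc genes had 24 counts in all 18 libraries together, with at most 3 for a gene in a library, and Hoxc4 and Hoxc12 had none.

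Among the Hoxd genes, Hoxd8 had a mean of 8.17 counts per library with at most 21, and Hoxd4 a mean of 7.78 with at most 17. Hoxd1 and Hoxd12 had no count, and Hoxd13, the prostate paralogue of the cluster, had 1 count in 1 library. In the Hoxb cluster, Hoxb1 had no count and Hoxb2 at most 4. The lowest gene that passed was Hoxa2, with a mean of 30.8 counts, so a gap separates it from Hoxd8. Levels are given as CPM, counts scaled to the effective size of each library. With library totals of 22027395 to 43379662, a count of 0 allows up to 3 counts, or between 0.0701 and 0.133 CPM, for counting error only, since reads carried no molecular identifiers.

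Levels between genes were compared as CPM per kilobase of merged exons (GENCODE M21). In control, Hoxa11 stood at 27.9 ± 2.60 CPM per kb (SD, n = 6), Hoxb13 at 25.6 ± 4.67 and Hoxa10 at 18.2 ± 2.72. Together these 3 genes made up 64.6% ± 2.35 of the summed level of all 39, and genes of groups 9 to 13 made up 75.6% ± 2.31. Hoxa11 and Hoxa10 pattern the reproductive tract and limbs, and Hoxb13 is known as a transcription factor of prostate epithelium. Hoxa11 lay above 85.8% of the tested genes with a known length, Hoxb13 above 84.4% and Hoxa10 above 78.0%.

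Hoxa9 at 7.87 ± 0.756 CPM per kb and Hoxa7 at 7.52 ± 0.541 followed, and both are known from leukaemia, where they are overexpressed. Hoxa5, which acts in lung development, was at 4.89 ± 0.614, Hoxa13 at 3.84 ± 0.523 and Hoxa6 at 2.88 ± 0.431. Next in order came Hoxb7, Hoxb6, Hoxa4 and Hoxb4, from 2.32 ± 0.153 down to 1.39 ± 0.168. Hoxb3, Hoxa3 and Hoxa2 lay at 0.817 ± 0.0983, 0.805 ± 0.134 and 0.766 ± 0.0981 CPM per kb. The lowest tested genes were Hoxb9 at 0.444 ± 0.0926, Hoxb8 at 0.443 ± 0.101 and Hoxb5 at 0.413 ± 0.0975, and Hoxb5 still lay above 12.7% of tested genes.

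Of the 18 pairs of neighbours in this order, 14 overlapped in their control libraries. The 4 breaks lay between Hoxa10 and Hoxa9, Hoxa7 and Hoxa5, Hoxb7 and Hoxb6, and Hoxa2 and Hoxb9. The first 3 ranks were the same in all groups. Hoxa13 was seventh in control and sixth with either hairpin, and Hoxb9 was seventeenth in control, sixteenth with shRNF185.1 and fifteenth with shRNF185.3.

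**Figure D1:**
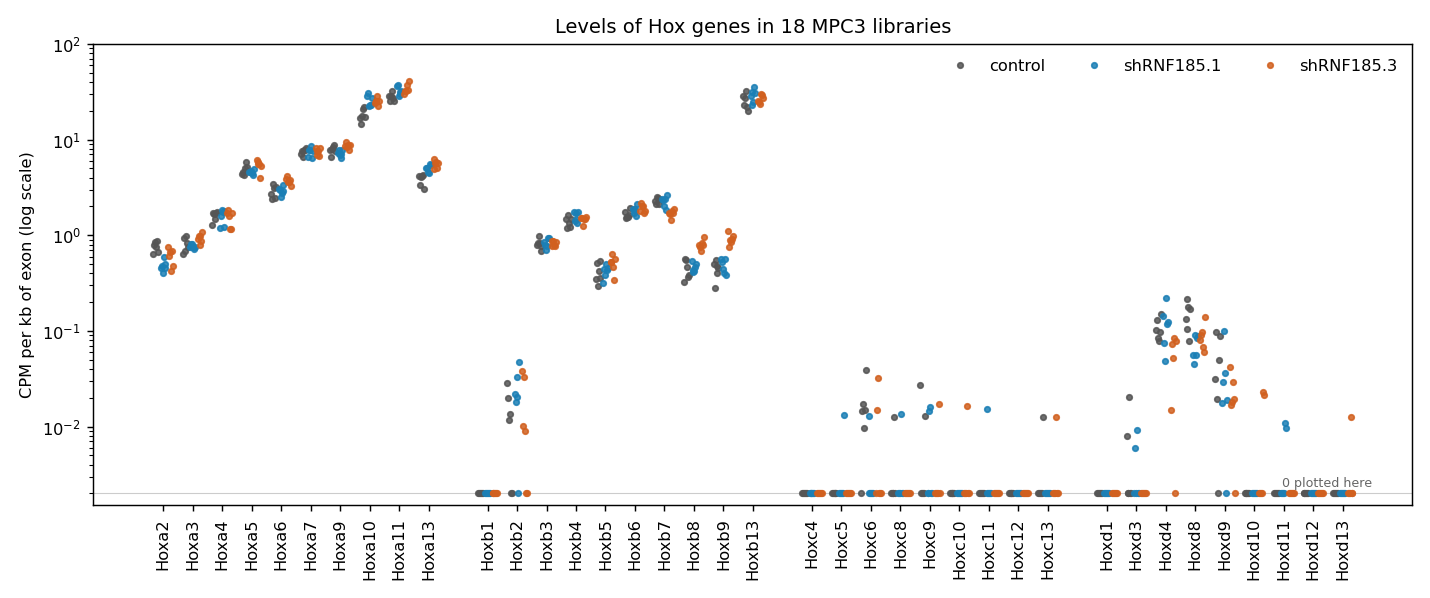
Level of Hox genes of the 4 clusters in CPM per kb of exon (log axis, 0 drawn at the lower edge), in the order of the clusters, with a point for each of 18 libraries coloured by group. Hoxa10, Hoxa11 and Hoxb13 stand highest, near 14 to 41 CPM per kb, and the Hoxc genes lie at or near 0.

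The Hoxa cluster supplied 69.9% ± 2.62 of the summed Hox level in control, 70.7% ± 2.36 with shRNF185.1 and 72.8% ± 1.64 with shRNF185.3. The Hoxb cluster supplied 29.8% ± 2.64, 29.1% ± 2.38 and 27.01% ± 1.66. The sum over all 39 genes was 110.8 ± 9.50 CPM per kb in control, 126.8 ± 10.4 with shRNF185.1 and 129.2 ± 7.38 with shRNF185.3. Its range in control, 99.7 to 126.6, overlapped both the range with shRNF185.1, 112.1 to 139.6, and that with shRNF185.3, 122.8 to 139.2. These sums and shares are descriptions without a test.

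Some facts of the whole series bear on these values. Rnf185 itself stood at 35.9 ± 1.96 CPM in control and at 5.81 ± 0.582 and 5.80 ± 0.546 with the hairpins, with no overlap of the groups. Of 10 markers of prostate epithelium, 6 were tested, among them Krt8 and Krt18, the keratins of luminal cells. Epcam was at or under 0.289 CPM in control and Pbsn had no count. The summed level of the 10 ran from 1517 to 1826 CPM in control, from 967.1 to 1248 with shRNF185.1 and from 1023 to 1100.3 with shRNF185.3. Krt18 fell with both hairpins (log2 fold changes of -0.997 and -1.25), as did Krt8 (-0.53 and -0.52) and the adhesion gene Cdh1 (-1.91 and -2.13). The epithelial markers did not all fall. At an edgeR adjusted p under 0.05, 2 of the 6 tested markers rose in the shRNF185.1 libraries and 4 fell. In the shRNF185.3 libraries 1 rose and 3 fell. Over all genes tested, 28.9% and 27.3% passed in either direction. Trp63 averaged 2.78 CPM in control, and 4.32 and 4.68 CPM in the 2 hairpin groups. Of 6 mesenchymal markers 4 were tested, and Thy1 had 3 counts in all. Their sum, mostly of Vim (3201 ± 348 CPM in control), ran from 3025 to 3987 CPM in control, from 3521 to 3902 with shRNF185.1 and from 3451 to 3939 with shRNF185.3. Pdgfrb rose with both hairpins (157.1, 201.4 and 235.1 CPM), and Dcn had 24.9, 5.76 and 17.6 CPM and fell with shRNF185.1. Of 5 leukocyte markers 1 was tested, Cd68, and of 4 endothelial markers none was. The part of these marker changes in the Hox results was not tested.

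With shRNF185.1 against control, the 3 genes at the high-numbered end of the Hoxa cluster rose and Hoxa2 fell. Hoxa10 rose by 1.42-fold, Hoxa13 by 1.32-fold and Hoxa11 by 1.17-fold, and Hoxa2 fell to 0.627 of its control level. These were 4 of 19 tested Hox genes (21.1%), called at an adjusted p under 0.05, against 28.9% of all 14309 genes tested. Higher calls were 3 of 19, where 14.6% of all genes were higher, and the lower call was 1, where 14.3% were lower. None of the 8 tested Hoxb genes was called by edgeR, DESeq2 or limma-voom, and 0 had an unadjusted p under 0.05, with log2 fold changes from -0.03 to 0.18. The median log2 fold change was 0.02 over the 19 Hox genes and -0.02 over all genes tested.

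With shRNF185.3 against control, the same end of the Hoxa cluster rose, and genes in the middle of the Hoxb cluster differed as well. Hoxb9 rose 2.06-fold and Hoxb8 1.82-fold, while their neighbour Hoxb7 fell to 0.740 of its control level. Hoxa13 rose 1.46-fold, Hoxa10 1.39-fold, Hoxa6 1.30-fold and Hoxa11 1.22-fold. The 7 called genes were 36.8% of the 19, against 27.3% of all genes tested. Higher calls were 6, where 14.2% of all genes were higher, and the lower call was Hoxb7 alone, where 13.1% were lower. The median log2 fold change was 0.14 over the Hox genes and -0.02 over all genes.

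For the mean of both hairpins against control, 7 of 19 were called, where 32.9% of all genes were, 5 of them higher (16.1% of all genes) and 2 lower (16.8%). The 5 higher genes were Hoxa10, Hoxa11, Hoxa13, Hoxb8 and Hoxb9, and the 2 lower ones Hoxa2 and Hoxb7. The Hoxb7 call for the mean was lost in 7 of 13 alternative analyses, among them leaving out any batch (edgeR adjusted p = 0.125, 0.259 and 0.0703 without batches 1, 2 and 3). Those of Hoxb8 and Hoxb9 were lost without batch 1 (0.0536 and 0.0514) or batch 3 (0.188 and 0.0542). Hoxa11 lost its call without batch 1 (0.0776) or 3 (0.133) and with libraries of a group and batch summed (0.0634). Hoxa2 lost it without batch 3 (0.059). With shRNF185.1 alone, Hoxb8 and Hoxb9 were not called (log2 fold changes of 0.07 and 0.11). Among the 6 tested genes of groups 9 to 13, 4 were higher and none lower, and the median log2 fold change was 0.36. Among the 13 of groups 1 to 8, 1 was higher and 2 lower, with a median of 0.03. Both hairpins were set against the same control libraries, so their calls are not independent of each other.

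**Figure D2:**
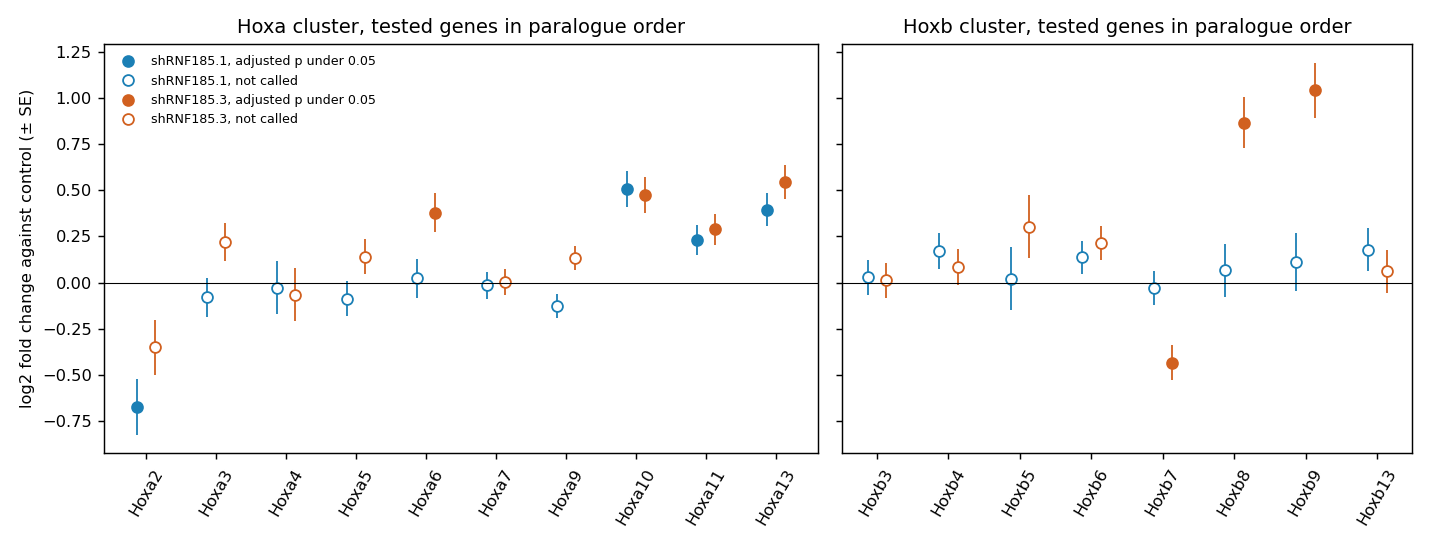
Log2 fold change of tested Hox genes against control with its SE, for shRNF185.1 and shRNF185.3, in paralogue order within the Hoxa and Hoxb clusters. Hoxa10, Hoxa11 and Hoxa13 lie above 0 with both hairpins, while Hoxb8 and Hoxb9 lie near 0 with shRNF185.1 and at 0.87 and 1.04 with shRNF185.3.

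Hoxa10 (ENSMUSG00000000938, chr6:52231197-52240854, minus strand) acts in the uterus and in blood cell formation. Its 6 control libraries ran from 47.3 to 71.5 CPM with a median of 57.4. The shRNF185.1 libraries ran from 73.6 to 101.2 with a median of 83.0, and the shRNF185.3 libraries from 72.9 to 93.5 with a median of 83.1. Every hairpin library thus lay above every control library. For shRNF185.1 this was a log2 fold change of 0.51 (SE 0.10), with an adjusted p of 0.000639 by edgeR's quasi-likelihood test and Benjamini-Hochberg adjustment. For shRNF185.3 it was 0.47 (SE 0.10, edgeR adjusted p = 0.00132). Batches 1, 2 and 3 gave shRNF185.1 differences of 0.92, 0.23 and 0.38, and shRNF185.3 differences of 0.66, 0.49 and 0.29. Leaving out batch 1 brought the shRNF185.1 value to 0.30, where edgeR's adjusted p was 0.0585.

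Hoxa13 (ENSMUSG00000038203, chr6:52257694-52260880, minus strand) is the last gene of the cluster and acts in the limb ends and the urogenital tract. In control it ran from 7.47 to 10.5 CPM with a median of 10.1. With shRNF185.1 it ran from 11.2 to 13.9 with a median of 12.5, and with shRNF185.3 from 12.1 to 15.5 with a median of 14.1. The highest control library lay below all 12 hairpin libraries. On the log2 scale Hoxa13 rose by 0.40 (SE 0.09, edgeR adjusted p = 0.00272) in the shRNF185.1 group and by 0.55 (SE 0.09, edgeR adjusted p = 0.000174) in the shRNF185.3 group. Single batches gave 0.44, 0.15 and 0.62 for the former and 0.57, 0.49 and 0.59 for the latter. Leaving out batch 3 brought the shRNF185.1 value to 0.29 (edgeR adjusted p = 0.0515).

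Counting genes whose groups do not overlap, Hoxa10 and Hoxa13 were the 2 of 19 that lay wholly above control with shRNF185.1, where 7.02% of all genes did. Hoxa2 alone lay wholly below, where 5.77% of all genes did, so that 3 of 19 did not overlap in either direction, against 12.8% of all genes. With shRNF185.3, 4 of 19 lay wholly above (Hoxa10, Hoxa13, Hoxb8 and Hoxb9), where 7.6% of all genes did, and Hoxb7 alone lay below, where 5.7% did. In either direction these were 5 of 19, against 13.3% of all genes. Set against the 12 hairpin libraries together, Hoxa10 and Hoxa13 were the 2 Hox genes wholly above control, where 4.22% of all genes were. No Hox gene lay wholly below, where 2.36% did, and 6.58% of all genes did not overlap in either direction.

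Hoxa11 (ENSMUSG00000038210, chr6:52242106-52245810, minus strand) lies between them, and its groups overlapped. In the control libraries the lowest value was 57.7 CPM, the median 63.7 and the highest 73.8. The shRNF185.1 libraries had 65.8, 72.9 and 85.2 in that order, and the shRNF185.3 libraries had 67.9, 74.1 and 93.1. The lower libraries of either hairpin lay inside the control range, and 3 of 6 lay above it. The shRNF185.1 libraries gave a log2 fold change of 0.23 (SE 0.08, edgeR adjusted p = 0.0446), and the shRNF185.3 libraries one of 0.29 (SE 0.08, edgeR adjusted p = 0.0142).

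The Hoxa11 call with shRNF185.1 did not hold within every batch, where the differences were 0.47, -0.06 and 0.28, and it was lost in 8 of 13 alternative analyses. Without batch 1 the value was 0.10 (edgeR adjusted p = 0.507), and without batch 3 it was 0.21 (edgeR adjusted p = 0.177). For shRNF185.3 the batches gave 0.20, 0.18 and 0.47, and leaving out batch 3 ended the call (0.19, edgeR adjusted p = 0.231). That call was also lost with the 2 libraries of a group and batch summed (edgeR adjusted p = 0.076). The same held with an offset for GC content and length plus a replicate block (edgeR adjusted p = 0.051).

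Hoxa11 also shares 800 exonic bases, 35.0% of its own, with the antisense transcript Hoxa11os on the other strand. Hoxa11os stood at 46.8 ± 6.86 CPM in control, 48.1 ± 5.34 with shRNF185.1 and 47.6 ± 3.14 with shRNF185.3, and was not called. The libraries were strand-specific per the labels, but the strand setting of the counting is not given in the sources used here. The log2 ratio of Hoxa11 to Hoxa11os counts within a library averaged 0.45 in control, 0.64 with shRNF185.1 and 0.70 with shRNF185.3.

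Hoxa9 (ENSMUSG00000038227, chr6:52223100-52231089, minus strand), next to Hoxa10 and a partner of Meis1 in leukaemia, was not called against control in the main analysis. Control libraries ran from 36.7 to 48.9 CPM with a median of 43.9. The shRNF185.1 libraries ran from 36.2 to 43.5 (median 40.2), and the shRNF185.3 libraries from 43.3 to 52.1 (median 48.3). The 2 hairpins thus lay on either side of control, overlapping it. Its log2 fold changes were -0.13 (SE 0.06, edgeR adjusted p = 0.147) for shRNF185.1 and 0.13 (SE 0.06, edgeR adjusted p = 0.141) for shRNF185.3. The batches differed in sign for shRNF185.1, at 0.07, -0.24 and -0.21. Without batch 1 the shRNF185.1 value was -0.225 and was called (edgeR adjusted p = 0.0493).

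A ratio of neighbours within a library does not depend on how libraries are scaled. The pairs were chosen after their values were seen and carry no test. The log2 ratio of Hoxa10 to Hoxa9 counts ran from 0.35 to 0.55 in control, from 0.92 to 1.23 with shRNF185.1 and from 0.68 to 0.94 with shRNF185.3, so no hairpin library reached the control range. The log2 ratio of Hoxa13 to Hoxa9 ran from -2.52 to -2.07 in control, from -1.81 to -1.38 with shRNF185.1 and from -1.98 to -1.73 with shRNF185.3, again without overlap with control. Differences in Hoxa9 itself, -0.13 with shRNF185.1 and 0.13 with shRNF185.3, enter both ratios.

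Hoxa2 (ENSMUSG00000014704, chr6:52162417-52164831, minus strand), which patterns the hindbrain and the neural crest of the second pharyngeal arch, was the gene that fell with shRNF185.1. The lowest, median and highest control libraries had 1.13, 1.37 and 1.56 CPM. Those with shRNF185.1 had 0.709, 0.826 and 1.05, and those with shRNF185.3 had 0.746, 1.14 and 1.33. All libraries with shRNF185.1 lay below control, and 3 of 6 with shRNF185.3 did. The shRNF185.1 value was -0.67 on the log2 scale (SE 0.15, edgeR adjusted p = 0.00241), with -0.61, -0.74 and -0.68 in the batches. The shRNF185.3 value was -0.35 (SE 0.15, edgeR adjusted p = 0.0887). The annotated gene Gm28308 shares 15.0% of the exonic bases of Hoxa2 on the same strand, so reads could be split between them. With the counts of Gm28308 added to Hoxa2, an analysis chosen after seeing the data, the shRNF185.1 value was -0.51 (edgeR adjusted p = 0.00585).

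**Figure D3:**
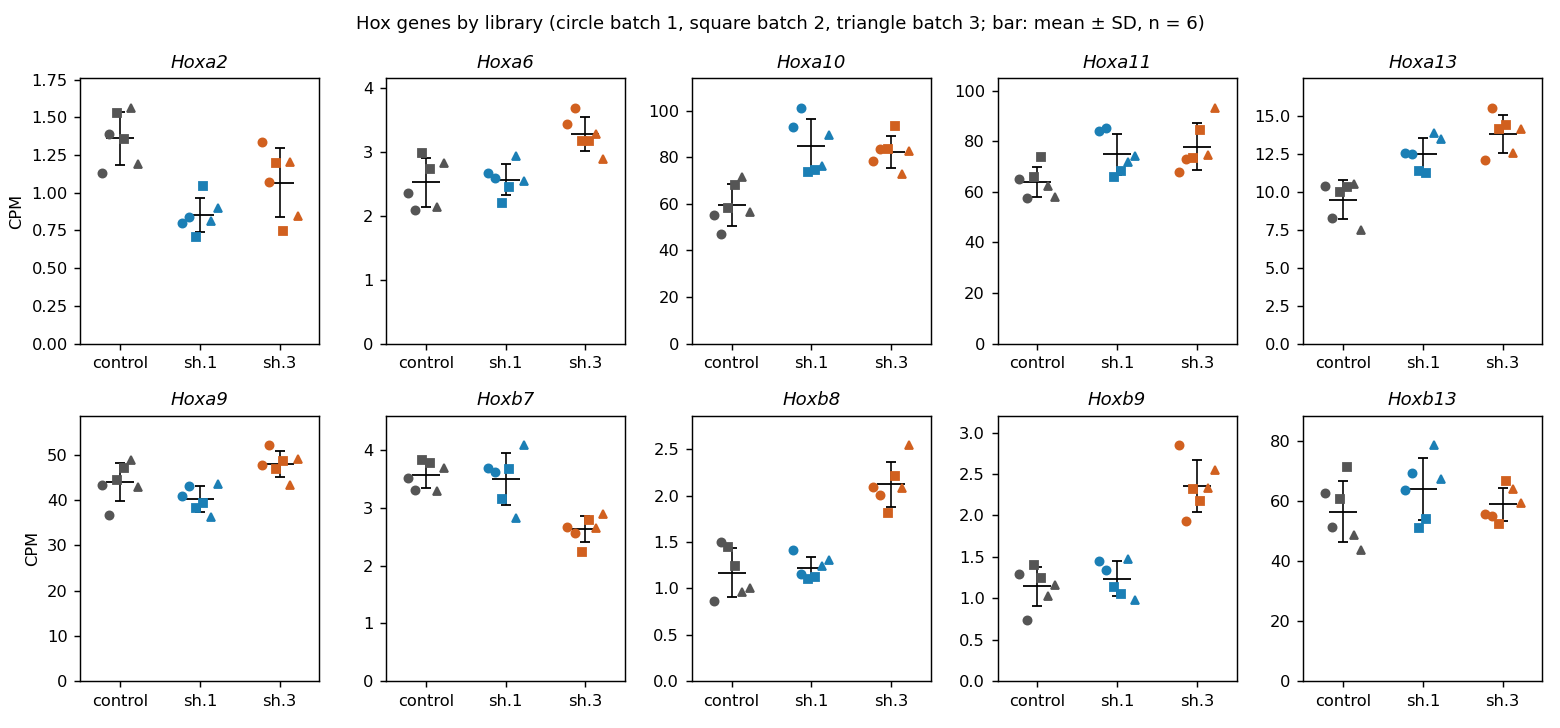
CPM of single Hox genes in each library, by group (sh.1 is shRNF185.1 and sh.3 is shRNF185.3), with symbols for the 3 batches and bars for the mean ± SD of 6 libraries. Hoxa10 and Hoxa13 lie above control with both hairpins. Hoxb8 and Hoxb9 lie above control with shRNF185.3 and overlap it with shRNF185.1.

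In the Hoxb cluster, Hoxb9 (ENSMUSG00000020875, chr11:96271457-96276595, plus strand) had the largest fold change of the 19 genes with shRNF185.3. It patterns the thoracic skeleton and the mammary gland. Across control libraries it ran from 0.731 to 1.40 CPM with a median of 1.20. Across shRNF185.1 libraries it ran from 0.982 to 1.47 (median 1.24), and across shRNF185.3 libraries from 1.93 to 2.85 (median 2.32). The libraries with shRNF185.3 lay above all 12 others, and the other 2 groups overlapped. Hoxb9 rose by 1.04 on the log2 scale for shRNF185.3 (SE 0.15, edgeR adjusted p = 4.26e-05), with 1.27, 0.77 and 1.15 in the batches. For shRNF185.1 it was 0.11 (SE 0.16, edgeR adjusted p = 0.628).

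Hoxb8 (ENSMUSG00000056648, chr11:96281905-96285315, plus strand), the gene with the site for miR-196 printed above, is known for its role in microglia and myeloid progenitors. The lowest control library had 0.864 CPM, the median was 1.12 and the highest had 1.50. Libraries with shRNF185.1 ran from 1.10 to 1.41 (median 1.19), and those with shRNF185.3 from 1.82 to 2.54 (median 2.08). As for Hoxb9, the libraries with shRNF185.3 stood above all others. Hoxb8 rose by 0.87 on the log2 scale (SE 0.14, edgeR adjusted p = 0.000118) in the shRNF185.3 group, where batches gave 0.85, 0.58 and 1.23. In the shRNF185.1 group the value was 0.07 (SE 0.14, edgeR adjusted p = 0.77).

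Hoxb7 (ENSMUSG00000038721, chr11:96286623-96290162, plus strand), the next gene along, moved the other way. It ran from 3.30 to 3.84 CPM in control (median 3.61). In the shRNF185.1 group it ran from 2.82 to 4.09 (median 3.65), and in the shRNF185.3 group from 2.24 to 2.89 (median 2.66). All libraries with shRNF185.3 lay below control, and those with shRNF185.1 fell on both sides of it. The shRNF185.3 difference was -0.44 on the log2 scale (SE 0.10, edgeR adjusted p = 0.00203), with -0.38, -0.61 and -0.34 in the batches. The shRNF185.1 difference was -0.03 (SE 0.09, edgeR adjusted p = 0.846).

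Within libraries, the log2 ratio of Hoxb8 to Hoxb7 counts ran from -2.03 to -1.14 in control, from -1.71 to -1.19 with shRNF185.1 and from -0.36 to -0.18 with shRNF185.3. The log2 ratio of Hoxb9 to Hoxb7 averaged -1.67, -1.51 and -0.17 in the same order. In both ratios the shRNF185.3 libraries stood apart from those of the other groups. These pairs set a gene that rose with shRNF185.3 over one that fell and were chosen after their values were seen. The gap is therefore not a result separate from those of the single genes.

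**Figure D4:**
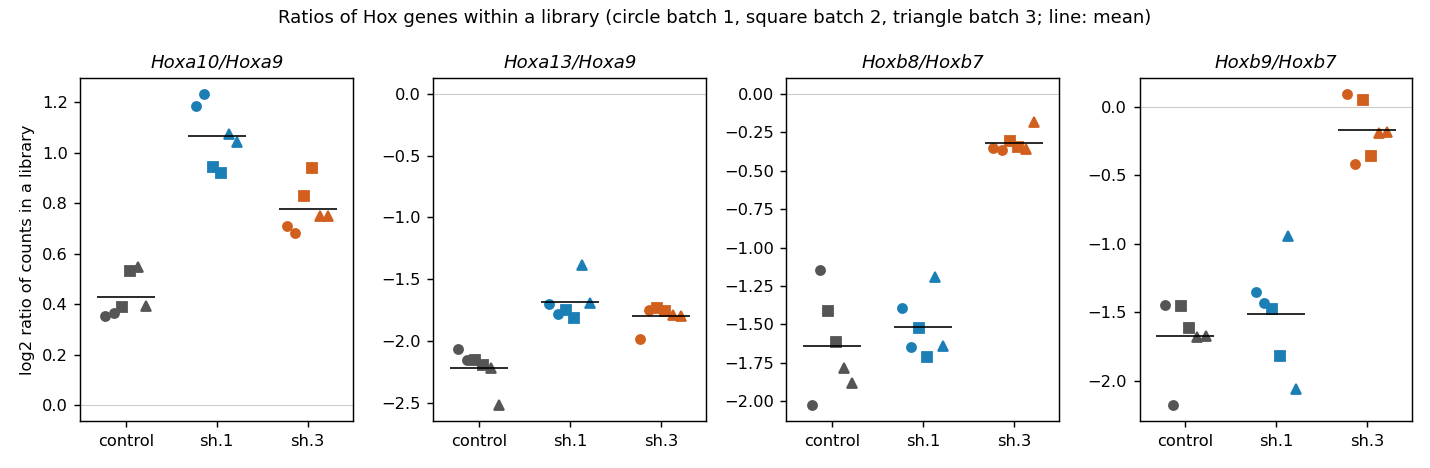
Log2 ratios of the counts of pairs of Hox genes within a library, by group (sh.1 is shRNF185.1 and sh.3 is shRNF185.3), with symbols for batches and a line for the mean. For Hoxa10 to Hoxa9 both hairpins lie above control, and for Hoxb8 to Hoxb7 the shRNF185.3 libraries lie between -0.36 and -0.18, above the other groups.

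Hoxb13 (ENSMUSG00000049604, chr11:96194316-96197447, plus strand), the prostate gene of the family, was not called. Control ran from 43.8 to 71.5 CPM with a median of 56.0, shRNF185.1 from 50.9 to 78.7 with a median of 65.6, and shRNF185.3 from 52.2 to 66.9 with a median of 57.6. The 3 groups overlapped throughout. Its log2 fold changes were 0.18 (SE 0.12, edgeR adjusted p = 0.267) for shRNF185.1 and 0.06 (SE 0.12, edgeR adjusted p = 0.732) for shRNF185.3. The batches differed in sign for shRNF185.1, at 0.23, -0.33 and 0.66. Without batch 2 the value was 0.43 and was called (edgeR adjusted p = 0.00445).

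Hoxa6 (ENSMUSG00000043219, chr6:52206288-52208722, minus strand) was the remaining gene called with shRNF185.3. Its control range was 2.09 to 2.97 CPM with a median of 2.55, and its shRNF185.1 range was 2.20 to 2.93 with a median of 2.56. The shRNF185.3 range was 2.89 to 3.68 with a median of 3.23, and 5 of those 6 libraries lay above control. The log2 fold changes were 0.02 (SE 0.11, edgeR adjusted p = 0.898) for shRNF185.1 and 0.38 (SE 0.11, edgeR adjusted p = 0.0112) for shRNF185.3. The latter was 0.23 without batch 1 (edgeR adjusted p = 0.29).

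Hoxa3, Hoxa4, Hoxa5, Hoxa7, Hoxb3, Hoxb4, Hoxb5 and Hoxb6 were not called in any of the 4 comparisons of the main analysis. Without batch 3, Hoxa5 was called with shRNF185.3 (edgeR adjusted p = 0.00888) and between the hairpins (0.0134), and Hoxb6 with shRNF185.3 (0.0385). Hoxa3 was called between the hairpins with libraries of a group and batch summed (edgeR adjusted p = 0.0329) and with the offset for GC content and length (0.0398). Hoxa7 stood at 21.6 ± 1.56 CPM in control, 21.4 ± 2.26 with shRNF185.1 and 21.7 ± 1.78 with shRNF185.3, and its log2 values against control were -0.01 and 0.00. Hoxb4, known from the expansion of blood stem cells, stood at 3.57 ± 0.432, 4.01 ± 0.470 and 3.77 ± 0.269 CPM. A value that misses the threshold does not show that the groups were equal. Of the 9 tested Hox genes whose transcripts hold the miR-196 seed match, 3 were called with shRNF185.3 (Hoxa6, Hoxb7 and Hoxb8, in both directions). Of the 10 without it, 4 were, against 27.3% of all genes. With shRNF185.1 these were 0 of 9 and 4 of 10 (28.9% of all genes). For the mean of both hairpins they were 2 of 9 and 5 of 10 (32.9%), and between the hairpins 4 of 9 and 1 of 10 (14.7%). The part of the match in these counts was not tested.

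The untested Hoxd8 averaged 0.403 CPM in control, 0.193 with shRNF185.1 and 0.247 with shRNF185.3, and Hoxd4 averaged 0.314, 0.359 and 0.149. Without the filter on low counts Hoxd8 was called lower with shRNF185.1 and Hoxa11 was not called, so the split of the 4 calls there was 2 higher and 2 lower. Hoxd8 was also called lower with shRNF185.1 by DESeq2 and with libraries of a group and batch summed. For the mean of both hairpins it was called lower in the same settings. Hoxd4 was called lower with summed libraries, both with shRNF185.3 and between the hairpins. Counts in a library were at most 21 for Hoxd8 and 17 for Hoxd4.

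The hairpins were also compared with each other, shRNF185.3 against shRNF185.1. No control library enters this difference of means, but control libraries share in the filter, the scaling and the estimate of the spread. Hoxb9 and Hoxb8 were 1.90-fold and 1.74-fold higher with shRNF185.3, Hoxb7 was at 0.755 of its level with shRNF185.1, and Hoxa6 and Hoxa9 were 1.28-fold and 1.20-fold higher. These 5 genes were 26.3% of the 19, against 14.7% of all genes tested, with 4 higher (7.72% of all genes) and 1 lower (6.94%). Hoxb8 and Hoxb9 were the 2 genes wholly above, where 4.45% of all genes were. None lay wholly below, where 3.79% did, and 8.25% of all genes did not overlap in either direction. The median log2 difference was 0.15 over the Hox genes and -0.00 over all genes.

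The log2 difference was 0.93 for Hoxb9 (SE 0.15, edgeR adjusted p = 0.000302) and 0.80 for Hoxb8 (SE 0.14, edgeR adjusted p = 0.000549). In batches 1, 2 and 3 it was 0.75, 1.04 and 1.02 for Hoxb9 and 0.68, 0.85 and 0.85 for Hoxb8. For Hoxb7 it was -0.41 (SE 0.10, edgeR adjusted p = 0.00661), for Hoxa9 0.26 (SE 0.06, edgeR adjusted p = 0.00947) and for Hoxa6 0.36 (SE 0.11, edgeR adjusted p = 0.0279). The Hoxa6 call was lost in 7 of 13 alternative analyses, and the Hoxb7 and Hoxa9 calls were lost without batch 1 (edgeR adjusted p = 0.171 and 0.0519) or without batch 2 (0.0695 and 0.13). Without either of these batches Hoxb8 and Hoxb9 were the 2 Hox genes called. The genes at the end of the Hoxa cluster were not called between hairpins, with -0.04 for Hoxa10 (SE 0.10, edgeR adjusted p = 0.889), 0.06 for Hoxa11 (SE 0.08, 0.756) and 0.15 for Hoxa13 (SE 0.09, 0.336).

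Several TALE cofactors of Hox proteins were also higher with the hairpins. All 9 listed genes were tested, and with shRNF185.1 4 rose and none fell, while with shRNF185.3 5 rose and 1 fell. Over all genes tested, higher calls made up 14.6% (shRNF185.1) or 14.2% (shRNF185.3), and lower calls 14.3% or 13.1%. The median log2 fold change was 0.26 and 0.18, where all tested genes had -0.02 with either hairpin. Meis3 rose by 0.70 and 0.63 on the log2 scale with shRNF185.1 and shRNF185.3 and Meis1 by 0.45 and 0.49. Pknox2 rose by 0.96 with shRNF185.3, and Pbx3 by 0.26 with shRNF185.1. Meis2, named because it was the gene that fell, had -0.19 with shRNF185.3. Between the hairpins, 0 of the 9 were called by edgeR, DESeq2 or limma-voom, and 1 had an unadjusted p under 0.05, against 14.7% of all genes called.

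Among 12 genes of Polycomb repressive complex 2, which methylates histone H3 at silent Hox clusters, 1 rose and 3 fell with shRNF185.1, and 1 rose and 4 fell with shRNF185.3. These were 4 and 5 of 12 called, against 28.9% and 27.3% of all genes. Suz12, a core subunit, fell by 0.43 and 0.22, and Eed, another core subunit, fell by 0.32 with shRNF185.3. Among the accessory subunits, Epop fell by 0.42 and 0.60 and Phf19 by 0.29 and 0.46, while Phf1 rose by 0.32 and 0.39. The median log2 fold change of the list was -0.07 and -0.13.

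Of 19 genes of Polycomb repressive complex 1, 1 rose and 3 fell with either hairpin, 4 of 19 called against the same 28.9% and 27.3%, with medians of -0.05 and -0.11. Cbx7, a subunit that reads the histone mark, fell by 0.67 and 0.50, and Yaf2 by 0.41 and 0.22. Cbx6 rose by 0.19 with shRNF185.1 and had -0.48 with shRNF185.3, where it fell. Of 12 trithorax proteins and demethylases of the same mark, 2 and 3 were called, again against 28.9% and 27.3% of all genes. Ash1l rose by 0.50 and 0.42 and Wdr5 fell by 0.28 and 0.34, and Dpy30 fell by 0.21 with shRNF185.3. The median of that list was 0.03 and 0.01.

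Caudal factors and retinoic acid signalling act upstream of Hox genes in the embryo. Of 15 listed genes 9 were tested, and 3 rose with shRNF185.1 while 3 rose and 1 fell with shRNF185.3, or 3 and 4 of 9 called against 28.9% and 27.3% of all genes. Cdx2, a caudal homeobox gene of the gut and the posterior embryo, differed most between the hairpins. Control libraries had a lowest value of 10.3 CPM, a median of 12.6 and a highest of 17.5, and the mean was 28.4 ± 3.83 with shRNF185.1 and 11.9 ± 2.22 with shRNF185.3. It rose by 1.10 on the log2 scale with shRNF185.1 and had a difference of -1.25 between the hairpins, which was called. Aldh1a3, which makes retinoic acid, fell by 1.06 with shRNF185.3, Aldh1a1 rose by 0.86 and 0.99, and the receptor gene Rarg rose by 0.34 and 0.25.

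Genes in and around the clusters were examined in the same fit. Of 48 other annotated genes within the clusters, such as antisense transcripts, 11 were tested. With shRNF185.1, 0 of the 11 were called by edgeR, DESeq2 or limma-voom, where edgeR called 28.9% of all genes. Of the same 11, 0 had an unadjusted p under 0.05. With shRNF185.3, 1 of the 11 was called, against 27.3% of all genes, and this gene, Gm11539, fell by 0.62. For the mean of both hairpins edgeR and DESeq2 called 0 and limma-voom called 1, where edgeR called 32.9% of all genes. Of 11 genes that flank the clusters 7 were tested, and 4 were called with shRNF185.1 and 3 with shRNF185.3, against 28.9% and 27.3% of all genes. Hibadh, beyond the Hoxa13 end, rose by 0.35 and 0.20. Lnpk and Mtx2, on either side of the Hoxd cluster, and Smug1, beside the Hoxc cluster, fell with shRNF185.1 by 0.49, 0.75 and 0.32, and Lnpk and Smug1 fell with shRNF185.3 by 0.37 and 0.34. Evx1 and Evx2, homeobox genes next to Hoxa13 and Hoxd13, had no count in any library.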

How the data were processed

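Poly(A)-selected RNA from 18 libraries was sequenced as single-end reads of 75 bases, per the labels' protocols. The submitters' processing notes name cutadapt 2.3, STAR 2.7.0d, RSEM 1.3.1 and the build mm10. The authors deposited estimated counts for 47643 genes, adjusted for batch with ComBat-Seq per the labels. The adjustment's settings, the annotation and the strand setting are not given in the sources used here. Of these values 0.466% were not whole, and they were rounded before testing. The authors also deposited a signal (CPM), which is counts scaled to an effective library size, for 15386 genes, which the counts reproduce within a relative difference of 1e-06. Genes outside that table were scaled the same way.

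Counts were fitted in R 4.3.3 with edgeR 4.0.16 (filterByExpr with a minimum count of 10, TMM scaling, a mean per group over all 18 libraries, quasi-likelihood F test). Benjamini-Hochberg adjustment ran over 14309 genes, and calls were made at 0.05. The script was tested on simulated data. Gene symbols matched 99.1% of identifiers. Positions and exon lengths are those of GENCODE M21 (GRCm38, the same assembly as mm10). The Hox genes are described singly or by range, and some listed genes are not reported here. Of the other lists, at most 5 called genes each are named, by the largest fold change for the mean of both hairpins, and any other is said to be named after its values were seen. The members and lists were chosen with earlier results of these data known. The 13 alternatives include scaling, filter, tests (DESeq2 1.42.0, limma 3.58.1 voom), batch and replicate terms, an offset for GC content and length, and leaving out a batch.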

Additional observations from a re-analysis of the deposited data

Results flagged for a closer look

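Among 54 groups of 6 libraries, from 18 of the tested Hox genes in 3 groups, 2 held a library far from the other 5, where chance gives 2.7. Hoxa5 was at 7.48 CPM in shRNF185.3 replicate 5, where the next lowest library was at 9.94. Hoxb4 was at 3.25 CPM in shRNF185.3 replicate 3, where the next lowest was at 3.79. Neither gene was called in the main analysis.

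The effects of the 2 hairpins differed by edgeR's test of shRNF185.3 against shRNF185.1 for 5 Hox genes. The log2 difference was 0.36 for Hoxa6, 0.26 for Hoxa9, -0.41 for Hoxb7, 0.80 for Hoxb8 and 0.93 for Hoxb9. Rnf185 stood at 5.81 and 5.80 CPM with the hairpins.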

How the results depend on the processing

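No called Hox value reversed in any of the 13 alternatives. Of the values per gene, comparison and alternative, 947 kept their side of the threshold, 40 lost a call and 9 gained one. The 947 include the fits with Gm28308 counts added to Hoxa2 or Hoxa3, which were chosen after seeing the data. Those fits lie outside the 13 alternatives, and all kept their side. Hoxb8, Hoxb9, Hoxb7, Hoxa10 and Hoxa13 with shRNF185.3, Hoxa2 with shRNF185.1, and Hoxb8 and Hoxb9 between the hairpins were called in all of them. Leaving out a batch changed counts most. Called Hox genes with shRNF185.1 numbered 3, 5 and 2 without batches 1, 2 and 3. For the mean of both hairpins they numbered 3, 8 and 2, and between the hairpins 2, 2 and 6. Over all genes, 2207 were called with shRNF185.1 without batch 1, and 5119 without batch 2. With shRNF185.3, 2120 were called without batch 1 and 2501 without batch 3. For the mean they were 2672 without batch 1, 5411 without batch 2 and 3106 without batch 3, and between the hairpins 753 without batch 1 and 1208 without batch 2. Fewer libraries entered each of these fits, and the cause of the differences was not tested. Other scalings moved the split of higher and lower calls by less than 10 percentage points. With a batch term, 3559 genes were called with shRNF185.1, 3260 with shRNF185.3, 4031 for the mean and 1631 between the hairpins. The main fit, on the same adjusted counts, called 4141, 3906, 4701 and 2098. Under the batch term Hoxa11 with shRNF185.1 (edgeR adjusted p = 0.0693), Hoxb7 for the mean (0.0608) and Hoxa6 between the hairpins (0.0574) lost their calls.

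The replicate numbers shared by the groups were not taken to pair the libraries. Same-numbered libraries of different groups correlated with a mean r of -0.0144 over 18 pairs (lowest -0.6313), against -0.4346 for the same batch with other numbers and 0.111 across batches, and 2 of 18 libraries correlated best with their own number. Within a batch the same-numbered pairs were on average more alike than the others, so a pairing is not excluded. With the replicate block, 3 Hox genes were called with shRNF185.1, 7 with shRNF185.3, 7 for the mean and 4 between the hairpins. Over all genes the block gave 3811, 3578, 4304 and 1976 calls. Hoxa11 with shRNF185.1 and Hoxa6 between the hairpins lost their calls under it. The 20 Hox genes that were not tested did not pass the filter on low counts. Of these, 15 had at most 3 counts in every library, and 5 had no count in any. Whether greater depth would change this was not tested.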
